A study of Dendrobium catenatum with 16 samples.

Results

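LOC110115849 and LOC110098126 are the genes that the authors' annotation of Dendrobium catenatum, a medicinal orchid, describes as metallothionein-like protein type 2 and type 3. They were chosen by the abundance of their transcripts in these libraries, so their high level is no finding. They are 2 of the 5 genes described as metallothionein, among 23063 features counted in a first experiment and 28537 in a second. The other 3, LOC110097681, LOC110108418 and LOC110108912, are all described as type 2. Where a level, change or ratio is called that of type 2 without a gene name, it is that of LOC110115849.

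Metallothioneins are small proteins rich in cysteine, whose thiol groups bind copper, zinc and other metal ions. Plants carry several types that differ in how their cysteines are arranged. In Arabidopsis, type 2 and type 3 metallothioneins are made in leaves, hold copper there and contribute to its recovery from ageing leaves. Isolated metallothioneins also react with reactive oxygen species.

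RNA was taken from the parts above ground, namely shoots, stems and young leaves, of plantlets grown in culture on half-strength Murashige and Skoog medium with sucrose, agar and potato. The hormones supplied were the synthetic auxin naphthaleneacetic acid (NAA) and the synthetic cytokinin benzyladenine (6-BA). Plantlets of the first experiment were 2 months old and spent 3 weeks with distilled water, with 0.1 mg/L NAA, with 1.0 mg/L 6-BA or with both, and each of these 4 groups had 2 libraries. In the second, plantlets 9 months old received 6-BA at 0, 0.5, 1.0 or 2.0 mg/L for 2 or 4 weeks, with 1 library for each dose and time. The labels call the 2 libraries of a group biological replicates and do not say whether they came from separate vessels, so p-values measure the spread between these samples only. Plantlet age, treatment time and experiment changed together, and they cannot be told apart between the experiments.

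Libraries of the first experiment held 34.3 to 74.5 counts in units of 1000000, and those of the second 15.1 to 16.3. In the first, the 4 libraries without 6-BA were the shallowest, and depth and 6-BA therefore moved together. All 19 genes described as chlorophyll a-b binding or Rubisco small subunit, which mark green tissue, were detected in every library. Their summed level ran from 26344 to 32594 in the first experiment and between 14162 and 34918 in the second. Every level here is in counts per kilobase of gene length per 1000000 counts of the library. The 7 genes called root genes here were listed by words in their descriptions (Casparian strip, SHORT-ROOT, SCARECROW and similar). They summed to between 38.5 and 50.1 in the first experiment and between 27.9 and 78.4 in the second. Whether they mark root tissue in these libraries was not tested. In a bulk sample, fewer cells of a type and less RNA per cell cannot be told apart.

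The type 2 gene LOC110115849 lies on scaffold NW_021318777.1 from 788166 to 789653 on the plus strand, a span of 1488 bases with 568 bases of counted gene length. The type 3 gene LOC110098126 lies on NW_021319304.1 from 432916 to 434441, also on the plus strand, a span of 1526 bases with 496 counted. Both are annotated as protein-coding, and neither overlaps another annotated gene. The positions are those of the authors' annotation, whose build is not named in the sources used here. How reads shared by near-identical copies were assigned is not given either, so the split of counts among the 4 type 2 genes is uncertain.

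In the young plantlets, transcripts of the type 2 gene LOC110115849 fell with 6-BA, and those of the type 3 gene LOC110098126 did not pass the test under any treatment. The level of LOC110115849 was 10344 and 10048 in the water libraries, 9356 and 8384 under NAA, 4375 and 4919 under 6-BA, and 4565 and 4461 under both hormones. All 4 libraries with 6-BA lay below all 4 without it. The gene held rank 1 of all genes by level in the 4 libraries without 6-BA and rank 3 or 4 in those with it. Its reads made up 0.249 to 0.588% of all counts, between 135006 and 231430 per library.

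The group mean of LOC110115849 was 10196 ± 209 with water and 4647 ± 384 with 6-BA (SD, n = 2 each). The log2 fold change was -1.15 (SE 0.11, adjusted p = 0.000423, edgeR). Adjusted p-values marked edgeR come from its quasi-likelihood test, with Benjamini-Hochberg adjustment over all genes tested, 19420 in the first experiment. In this comparison 7.31% of all genes tested passed. With both hormones against water the change was -1.20 (SE 0.11, adjusted p = 0.000294, edgeR), where 7.08% of genes passed. Adding 6-BA to NAA gave -1.02 (SE 0.11, adjusted p = 0.000788, edgeR), where 5.58% of genes passed, but limma on log2(FPKM + 1) gave -0.97 with an adjusted p of 0.0509. The effect of 6-BA averaged over both NAA backgrounds was -1.09 (SE 0.08, adjusted p = 2.94e-05, edgeR), a contrast in which 14.7% of genes passed. The part of sequencing depth in these differences was not tested. The summed level of the root genes was 48.9 and 49.3 with water and 49.2 and 50.1 with 6-BA. Of these 7 genes 1 rose and 2 fell, 42.9% beside 7.31% of all genes. The gene that rose was SCARECROW 1 (LOC110109011), at 0.42 (SE 0.11, adjusted p = 0.0401, edgeR). The SHORT-ROOT-like gene LOC110095590 was among those that fell, at -1.84 (SE 0.26, adjusted p = 0.00326, edgeR). Averaged over NAA, 1 of the 7 rose and 2 fell, 42.9% beside 14.7% of all genes. There the Casparian strip gene LOC110102706 fell, at -1.75 (SE 0.28, adjusted p = 0.00302, edgeR). Of the 19 green-tissue genes, 19 had a positive log2 fold change with 6-BA against water and 1 passed, 5.26% beside 7.31% of all genes. The part of tissue make-up in the change of LOC110115849 was not tested.

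With NAA, LOC110115849 did not pass the test. The group mean with NAA was 8870 ± 687 (SD, n = 2), and the log2 fold change against water was -0.18 (95% confidence interval -0.42 to 0.06, adjusted p = 0.599, edgeR), where 2.23% of genes passed. Adding NAA to 6-BA gave -0.04 (95% interval -0.29 to 0.20, adjusted p = 0.986, edgeR). In that last comparison 0% of genes passed with edgeR, 1073 had an unadjusted p under 0.05, DESeq2 called 39 and limma 0. The interaction of the hormones on LOC110115849 was 0.13 (95% interval -0.21 to 0.47, adjusted p = 0.96, edgeR), where 0.52% of genes passed.

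**Figure D1:**
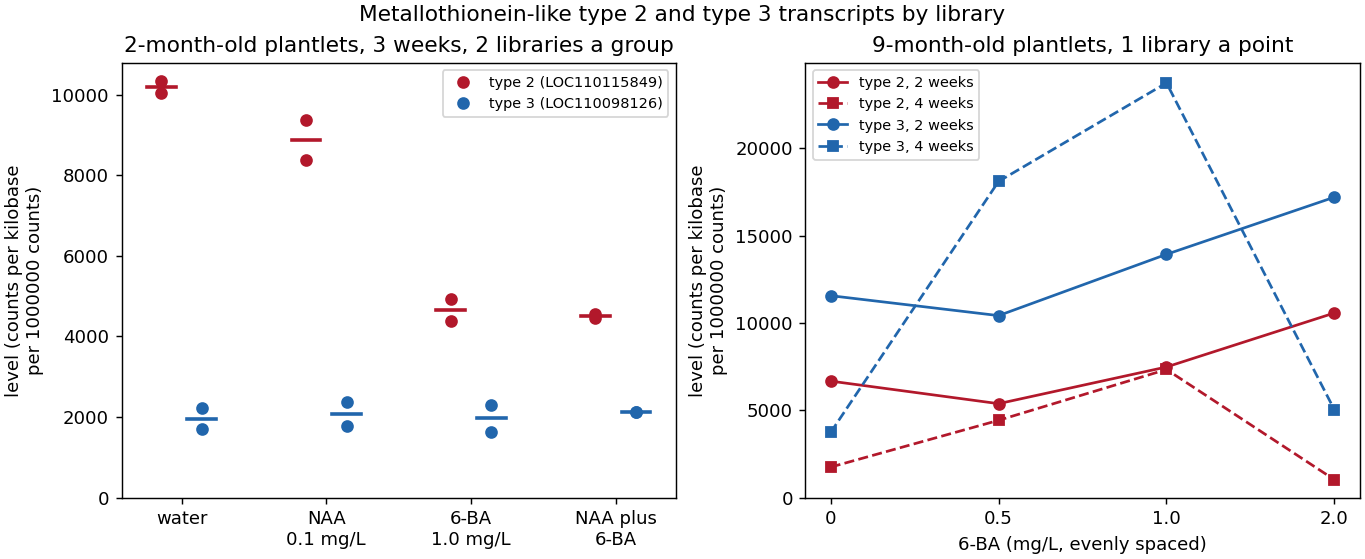
Level of the type 2 gene (red) and the type 3 gene (blue) in every library, in counts per kilobase per 1000000 counts on linear axes; bars on the left are means of 2 libraries, and lines on the right join single libraries. On the left the type 2 points with 6-BA lie at 4375 to 4919 and those without it at 8384 to 10344, while on the right both genes reach their lowest levels at 4 weeks with 0 or 2.0 mg/L.

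The type 3 gene LOC110098126 had levels of 2230 and 1694 in the water libraries, 1782 and 2364 under NAA, 2301 and 1631 under 6-BA, and 2120 and 2123 under both. The ranges of the 4 groups overlapped, and the 2 libraries of a group differed by more than any group means did, except with both hormones, where they nearly coincided. By level it ranked between 17 and 28 of all genes. The log2 fold change with 6-BA against water was -0.02 (95% interval -0.44 to 0.41, adjusted p = 0.967, edgeR). Averaged over NAA it was -0.02 (95% interval -0.32 to 0.29, adjusted p = 0.956, edgeR). With NAA against water it was 0.10 (95% interval -0.32 to 0.53, adjusted p = 0.899, edgeR). These intervals leave room for changes of about the size of their bounds, so they do not show that the gene was unaffected.

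**Figure D2:**
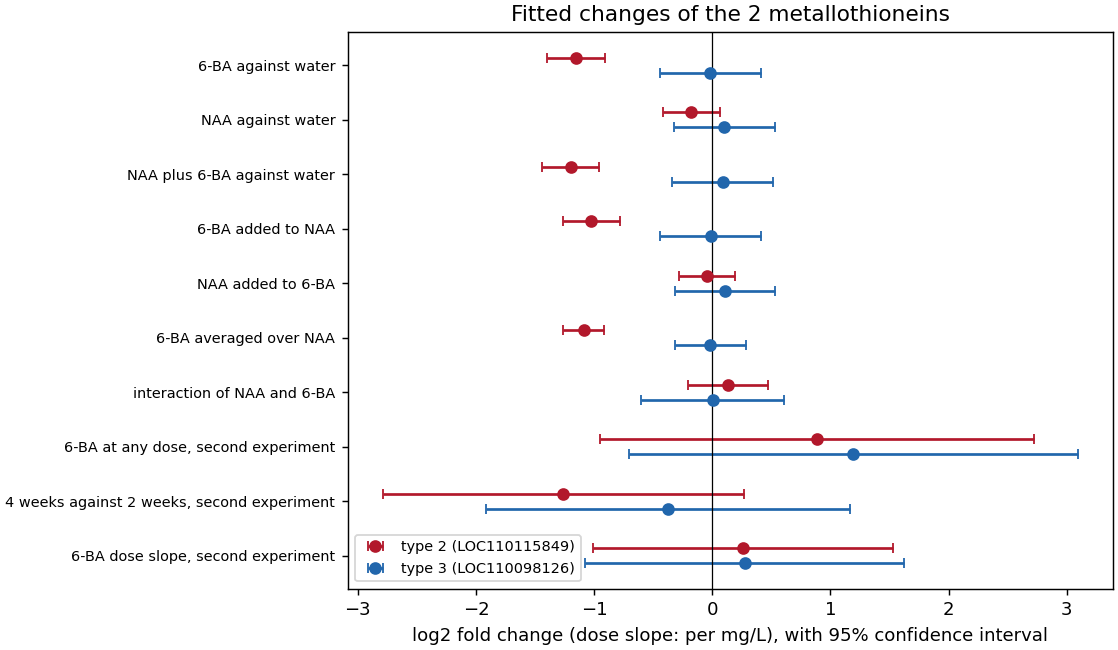
Fitted log2 fold changes of the type 2 (red) and type 3 (blue) gene in each comparison, with 95% confidence intervals; the dose slope is per mg/L. The type 2 intervals for the 4 contrasts with 6-BA of the first experiment lie below 0, and the intervals of the second experiment are several times wider.

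The balance between LOC110115849 and LOC110098126 within a library was also compared, a quantity that no library scaling can change. The type 2 to type 3 ratio of levels was 4.64 and 5.93 in the water libraries, 5.25 and 3.55 under NAA, 1.90 and 3.02 under 6-BA, and 2.15 and 2.10 under both. Every library with 6-BA had a lower ratio than every library without it. The mean log2 ratio was 1.17 ± 0.29 with 6-BA and 2.25 ± 0.32 without (SD, n = 4 each), a difference of -1.08. A two-sided exact permutation test gave p = 0.0286, the smallest p that 4 against 4 allows, and 0.0571 after Benjamini-Hochberg adjustment over 4 such tests, which misses the threshold of 0.05. NAA shifted the mean log2 ratio by -0.23 (exact permutation p = 0.686, adjusted p = 0.686), with overlapping groups.

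**Figure D3:**
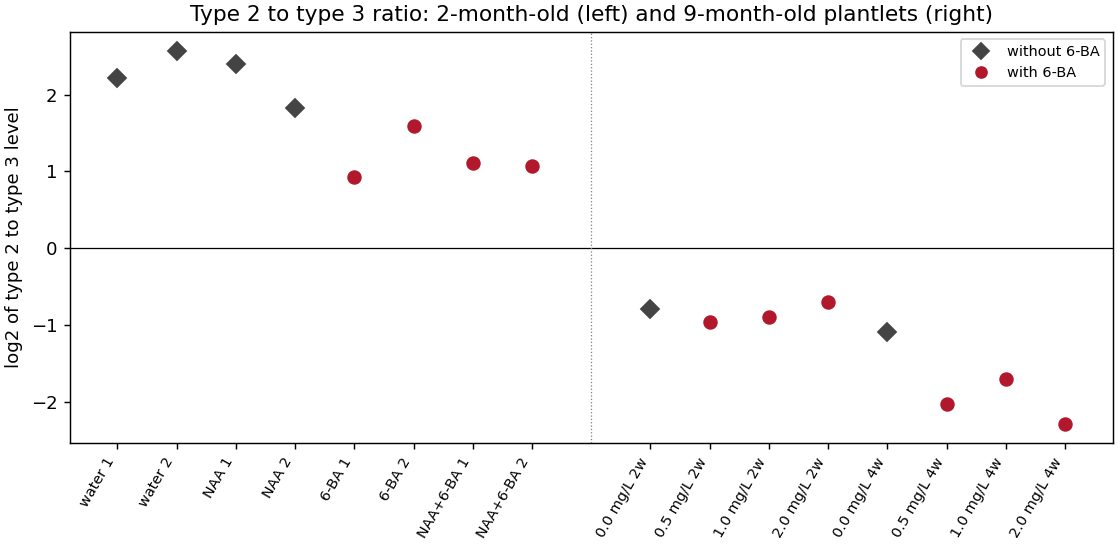
Log2 of the type 2 (LOC110115849) to type 3 level in each of the 16 libraries. Diamonds mark libraries without 6-BA and circles those with it. All 8 libraries of the 2-month-old plantlets lie above 0 and all 8 of the 9-month-old plantlets below it, and on the left every circle lies below every diamond.

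In the older plantlets the order of these 2 genes was the opposite. LOC110098126 exceeded LOC110115849 in all 8 libraries, with type 2 to type 3 ratios of 0.577, 0.516, 0.537 and 0.615 at 2 weeks and 0.469, 0.245, 0.309 and 0.205 at 4 weeks, for the 4 doses in rising order. All 4 ratios at 4 weeks lay below all 4 at 2 weeks. The mean log2 ratio was -1.78 at 4 weeks and -0.84 at 2 weeks, a difference of -0.94 (two-sided exact permutation p = 0.0286, the smallest possible, adjusted p = 0.0571). This test shuffled all 8 libraries freely. It ignored the matching of the weeks by dose and took 4 different doses as replicates of a week, so its p may overstate the evidence. Any dose against none differed by -0.48 (exact permutation p = 0.571, adjusted p = 0.686), in a design of 6 against 2 that allows no p below 0.0714. The order of these 2 genes is not that of the 2 types. Of the summed level of all 5 metallothionein genes, type 3 held 45.7, 48.1, 49.6 and 53.0% at 2 weeks, in rising order of dose. At 4 weeks it held 22.8, 58.7, 60.5 and 36.4%, and the 4 type 2 genes held the rest.

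At 2 weeks, LOC110098126 had levels of 11563 at 0 mg/L, 10423 at 0.5, 13930 at 1.0 and 17200 at 2.0 mg/L. LOC110115849 had 6674, 5383, 7483 and 10573 at the same doses. Both genes were lowest at 0.5 and highest at 2.0 mg/L. Against 0 mg/L, the log2 ratios of type 3 were -0.15, 0.27 and 0.57 and those of type 2 were -0.31, 0.17 and 0.66 for the 3 doses. None of these reached a 2-fold difference, which 12.3% of genes reached at 0.5 mg/L, 19.5% at 1.0 and 20.5% at 2.0 mg/L.

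At 4 weeks, LOC110098126 stood at 3738 with 0 mg/L, 18104 with 0.5, 23739 with 1.0 and 5032 with 2.0 mg/L. LOC110115849 stood at 1752, 4430, 7339 and 1033. Both genes were high at the intermediate doses and low at 0 and 2.0 mg/L. The level of type 3 was 4.84 times that of the 0 mg/L library at 0.5 mg/L and 6.35 times at 1.0 mg/L, and that of type 2 was 2.53 and 4.19 times. At 2.0 mg/L the log2 ratios were 0.43 for type 3 and -0.76 for type 2. In the same pairs of libraries 36.4% of all genes differed by 2-fold or more at 0.5 mg/L, 34.9% at 1.0 mg/L and 11.9% at 2.0 mg/L, so a 2-fold difference was common at the intermediate doses. Each of these ratios compares single libraries and has no replicate check.

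The summed level of the 7 root genes at 4 weeks was 78.4 at 0 mg/L, 28.3 at 0.5, 27.9 at 1.0 and 67.3 at 2.0 mg/L. It was highest in the libraries where both metallothioneins were lowest. The green-tissue sum was 15921, 19417, 20762 and 14162 in the same order, and 26383 to 34918 at 2 weeks. The part of tissue make-up in the metallothionein levels was not tested.

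Fitted over all 8 libraries of the second experiment, neither gene passed. For 6-BA at any dose, the log2 fold change was 0.89 for type 2 (95% interval -0.95 to 2.73, adjusted p = 0.856, edgeR) and 1.19 for type 3 (95% interval -0.71 to 3.09, adjusted p = 0.856, edgeR). In this comparison 0% of 21267 genes passed, while 498 had an unadjusted p under 0.05, DESeq2 called 6 and limma 0. For 4 against 2 weeks the changes were -1.26 for type 2 (95% interval -2.79 to 0.27, adjusted p = 0.89, edgeR) and -0.38 for type 3 (95% interval -1.92 to 1.17, adjusted p = 0.949, edgeR), where again 0% passed, 1116 genes had an unadjusted p under 0.05, DESeq2 called 82 and limma 0. The dose slopes were 0.26 and 0.28 per mg/L (adjusted p = 1 for both, edgeR), with 0% of genes passed, 430 at an unadjusted p under 0.05, 5 by DESeq2 and 0 by limma. The spread in these fits includes the misfit of a model without a dose by time term.

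None of the other 3 type 2 genes passed the test with 6-BA in the young plantlets, and whether their changes differed from that of LOC110115849 was not tested. LOC110097681, the next most abundant after LOC110115849, had levels of 3196 to 4146 over the 8 libraries. That was above the type 3 gene, at 1631 to 2364, in every library. The log2 fold change of LOC110097681 with 6-BA against water was -0.03 (adjusted p = 0.931, edgeR). LOC110108912 had levels of 1143 to 1867 and a change of 0.07 (adjusted p = 0.89, edgeR). LOC110108418 had levels of 573 to 935, with 699 and 935 under water and 573 and 578 under 6-BA. Its change was -0.53 (SE 0.14, 95% interval -0.85 to -0.21, adjusted p = 0.0581, edgeR), in the same direction as LOC110115849 and just outside the threshold. Averaged over NAA it was -0.30 (95% interval -0.52 to -0.07, adjusted p = 0.0798, edgeR). Of the 5 metallothionein genes, 1 fell, 0 rose and 4 did not pass with 6-BA against water, where 7.31% of all genes passed, and the median log2 fold change of the 5 was -0.03, beside 0.0035 over all genes tested. The 5 genes together took 0.960 to 1.08% of all counts in the libraries without 6-BA and 0.691 to 0.767% in those with it.

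In the older plantlets at 4 weeks, LOC110108912 and LOC110108418 stood lower at 0.5 and 1.0 mg/L than at 0 mg/L, where LOC110115849 and LOC110098126 stood higher. At 2.0 mg/L LOC110108912, LOC110108418 and LOC110115849 all stood below 0 mg/L, with log2 ratios of -0.48, -0.75 and -0.76, and from 0.5 to 1.0 mg/L all 4 genes went up. LOC110108912 had levels of 3030 at 0 mg/L, 112 at 0.5, 807 at 1.0 and 2178 at 2.0 mg/L, so the 0 mg/L library held 27.1 times the level of the 0.5 mg/L library. LOC110108418 had 2757, 539, 1063 and 1643 at these doses. Both were lowest at 0.5 mg/L, where type 3 stood at 4.84 times its level at 0 mg/L. At 2 weeks LOC110108912 went from 1114 at 0 mg/L through 964 and 405 to 100 at 2.0 mg/L, and LOC110108418 from 952 through 1019 and 1131 to 597. LOC110097681 stayed between 3863 and 7655 in all 8 libraries, and at 0 mg/L and 4 weeks its 5107 was above the 3738 of the type 3 gene. At 4 weeks with 0, 0.5 and 2.0 mg/L its levels of 5107, 7655 and 3930 were also above those of LOC110115849. These were 1752, 4430 and 1033. None of the 3 passed the fit for any dose, where the changes were -1.32 for LOC110108912, -0.65 for LOC110108418 and 0.17 for LOC110097681 (adjusted p = 0.856, 0.856 and 0.917, edgeR).

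**Figure D4:**
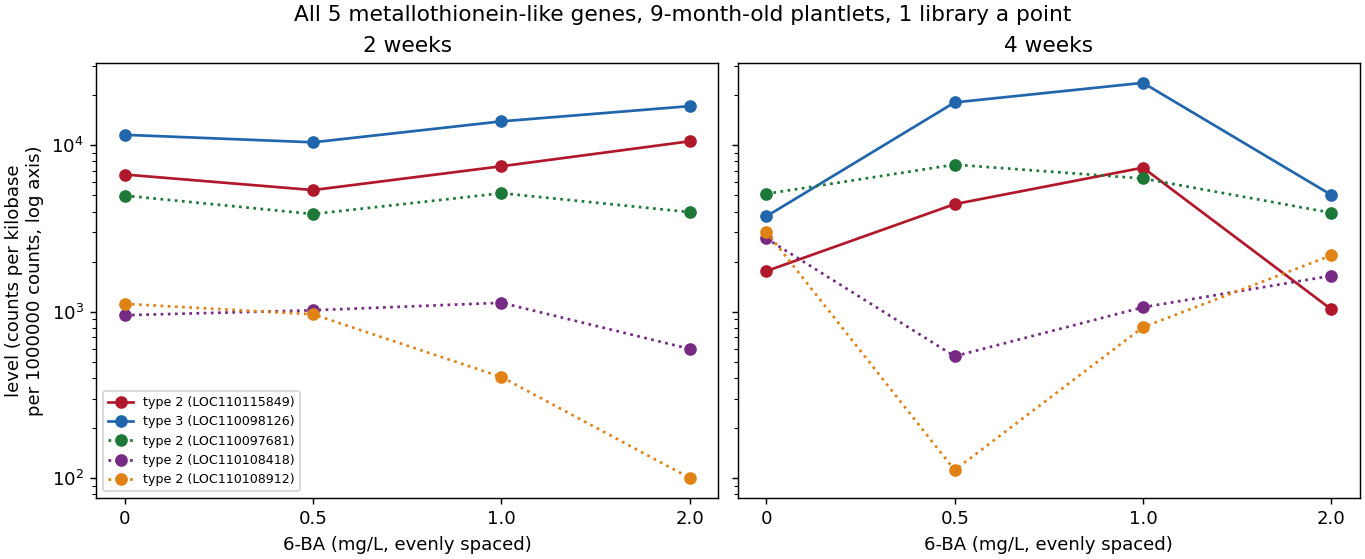
Levels of all 5 metallothionein-like genes in the 9-month-old plantlets at 2 weeks (left) and 4 weeks (right), on a log axis in counts per kilobase per 1000000 counts, 1 library a point. At 4 weeks the type 3 gene and LOC110115849 peak at 1.0 mg/L, while LOC110108912 and LOC110108418 are lowest at 0.5 mg/L.

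The share of the family's summed level held by the type 2 and type 3 genes studied here was 49.1 to 69.0% in the young plantlets. In the older ones it was 72.1 to 85.6% at 2 weeks and, at 4 weeks, 33.5% at 0 mg/L, 73.1% at 0.5, 79.1% at 1.0 and 43.9% at 2.0 mg/L. The range of levels over the second experiment was 10.2-fold for LOC110115849, 6.35-fold for LOC110098126, 30.3-fold for LOC110108912, 5.11-fold for LOC110108418 and 1.98-fold for LOC110097681.

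Other genes that bind or carry metal were counted in the young plantlets beside the share of all genes that passed. Of 48 tested genes of metal chelation and chaperoning (phytochelatin and nicotianamine synthesis, ferritins, copper chaperones, heavy metal-associated proteins), 3 rose, 8 fell and 37 did not pass with 6-BA against water, which is 22.9% beside 7.31% of all genes, and the median log2 fold change was -0.05 beside 0.0035. Ferritin-3 (LOC110101286), which stores iron in plastids, fell, with a log2 fold change of -1.54 (SE 0.19, adjusted p = 0.00131, edgeR). The heavy metal-associated isoprenylated protein 35 (LOC110109459) fell by 0.95 (SE 0.09, adjusted p = 0.000423, edgeR). Averaged over NAA, 7 rose, 12 fell and 29 did not pass, which is 39.6% beside 14.7% of all genes. With NAA against water 3 rose and 1 fell, 8.33% beside 2.23%. The count with 6-BA against water was 11 with all libraries and smaller when either 6-BA library or either water library was left out. Those fits leave 1 library in a group. The share of all genes passing was not counted in them, so whether the excess over all genes held was not tested.

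Of 46 tested metal transport genes, 1 rose, 6 fell and 39 did not pass with 6-BA against water, which is 15.2% beside 7.31% of all genes, with a median log2 fold change of 0.02. Vacuolar iron transporter 1.1 (LOC110097114), which belongs to a family that moves iron into the vacuole, fell by 1.19 (SE 0.12, adjusted p = 0.00057, edgeR). Zinc transporter 8 (LOC110101247) rose by 0.66 (SE 0.10, adjusted p = 0.00481, edgeR). Averaged over NAA, 3 rose and 7 fell, 21.7% beside 14.7% of all genes. With NAA against water 1 rose and 1 fell, 4.35% beside 2.23%. For 6-BA added to NAA 0 rose and 2 fell, 4.35% beside 5.58%, a share no higher than that of all genes. With both hormones against water 1 rose and 3 fell, 8.7% beside 7.08%. Fewer of these genes passed with 6-BA against water when either 6-BA library or either water library was left out. Those fits leave 1 library in a group, and the share of all genes passing was not counted in them. Where the search word ZIP was also allowed inside longer words, which takes in bZIP transcription factors, 13 passed. That matching widened the list from 48 to 77 genes, so the 13 do not show a higher share.

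Of 18 genes of reactive oxygen removal, 1 rose and 0 fell with 6-BA against water, 5.56% beside 7.31% of all genes, and 2 rose and 1 fell with NAA, 16.7% beside 2.23%. The one that rose with 6-BA was catalase isozyme 1 (LOC110114941), which breaks down hydrogen peroxide, at 0.38 (SE 0.07, adjusted p = 0.0116, edgeR). It no longer passed without either water library or without either 6-BA library. Averaged over NAA, 1 rose and 1 fell, 11.1% beside 14.7% of all genes. With 6-BA against water and averaged over NAA, the share of this list was thus no higher than that of all genes. Adding 6-BA to NAA gave 2 that rose and 0 that fell, 11.1% beside 5.58% of all genes. With both hormones against water 0 passed, beside 7.08% of all genes. The leaf senescence list was drawn by several words in the descriptions, among them pheophytinase and STAY-GREEN. Of its 13 tested genes, 0 passed with 6-BA or NAA against water (edgeR). DESeq2 called 1 of the 13 with 6-BA, where it called 2047 of all genes, beside 1420 by edgeR. Averaged over NAA 2 of the 13 passed, 15.4% beside 14.7% of all genes, a share near the background. Of these, pheophytinase (LOC110116743), which acts in chlorophyll breakdown, rose by 0.28 (SE 0.05, adjusted p = 0.00911, edgeR). The other, a senescence-specific cysteine protease SAG39-like gene (LOC110096912), fell by 2.29 (SE 0.64, adjusted p = 0.0406, edgeR). Where 6-BA was added to NAA, 1 of the 13 passed, 7.69% beside 5.58% of all genes. It was another such protease, SAG39 (LOC110115416), which rose by 2.40 (SE 0.57, adjusted p = 0.0415, edgeR). No gene of these 4 lists passed for 6-BA at any dose in the second experiment, where no gene of any kind did with edgeR and DESeq2 called 6.

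The genes most like each metallothionein were ranked by the smaller of 2 Pearson correlations of log2 CPM (counts per 1000000 counts), each over the 8 libraries of an experiment, among 6905 well-expressed genes. For LOC110115849 the first was a mitogen-activated protein kinase kinase kinase 1-like gene (LOC110116089, r = 0.95 and 0.97 in the first and second experiment). A beta-carotene 3-hydroxylase-like gene (LOC110111186, 0.95 and 0.95) and a chloroplastic glycerol-3-phosphate acyltransferase (LOC110106934, 0.95 and 0.94) came next. For LOC110098126 they were an uncharacterized gene (LOC110108960, 0.96 and 0.93), a gene described as ribonuclease Y (LOC110092416, 0.93 and 0.93) and an AT-hook nuclear-localized protein 25 (LOC110114579, 0.90 and 0.92). The correlations describe these libraries, which share their groups and scaling, and were chosen as the highest of many.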

How the data were processed

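Poly(A) RNA sequencing of 16 libraries was analysed from 2 count tables, 1 per experiment, grouped by the hormone, dose, time and age on the labels. The deposited values are raw counts per gene and FPKM. Per the submitters' processing notes, the tools were edgeR (no version), Cufflinks 2.2.2 and HISAT2 2.0.6, with no role stated. Sources used here do not give the build, the annotation release or the strandedness. The authors' FPKM of the first experiment follow library totals and those of the second another effective library size. Gene names, positions and lengths came from the authors' tables, and all 5 metallothionein IDs were found in a RefSeq gene table (ASM160598v2). No sequence is shown.

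Counts were fitted in R 4.3.3 with edgeR 4.0.16 (filterByExpr, TMM, quasi-likelihood test, Benjamini-Hochberg at 0.05 over all genes tested), with a 4-group model for the first experiment and week plus any dose, or week plus dose, for the second. Each contrast of the first experiment shares its spread over all 4 groups. Alternatives were DESeq2 1.42.0 and its size factors, no TMM, no filter, limma 3.58.1 on log2(FPKM + 1) of the deposited FPKM, a replicate block and each library left out. Standard errors and intervals are model-based. Levels and single-dose ratios use library totals. A single-dose ratio of all genes took genes with a count of at least 10 in either library, with 0.5 added to each count. Type 2 to type 3 ratios were tested by exact permutation in Python 3.11.15, over all arrangements of the libraries of an experiment. The other hormone, the dose or the week was not kept as a block. The fits were tested on simulated data.

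The members and lists were chosen with earlier results of these data known. Lists were drawn by words in the gene descriptions: metal chelation and chaperones, metal transport, reactive oxygen removal, leaf senescence, green tissue and root. ZIP, SGR and NYC1 were matched as whole words, and capitals were allowed for cadmium resistance, after the first matches were seen. Named genes are the metallothioneins, up to 2 genes of lowest p per list and contrast among those past the threshold, and the 3 most alike genes per member with a mean log2 CPM of at least 5.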

Additional observations from a re-analysis of the deposited data

Results flagged for a closer look

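The log2 ratios of LOC110115849 (type 2) at 1.0 mg/L 6-BA had opposite signs in the 2 experiments. Against the mean of the water libraries, the log2 ratios in the 2-month-old plantlets were -1.22 and -1.05. Against 0 mg/L of the same week, those in the 9-month-old plantlets were 0.17 at 2 weeks and 2.07 at 4 weeks. The mean in the older plantlets was 2.25 higher. The older values compare single libraries. At the other doses the ratios there were -0.31 (0.5 mg/L) and 0.66 (2.0 mg/L) at 2 weeks and 1.34 and -0.76 at 4 weeks. The fit for any dose gave 0.89 (95% interval -0.95 to 2.73, adjusted p = 0.856, edgeR), so the sign in the older plantlets is not settled. LOC110108912, another type 2 gene, had 0.09 and 0.09 in the young plantlets and -1.46 and -1.91 in single libraries of the older ones, a difference of -1.77. Its fitted change in the young plantlets was 0.07 (95% interval -0.39 to 0.52, adjusted p = 0.89, edgeR), so its sign there is not settled. These differences were not tested. Age, time, experiment and separately made tables cannot be told apart.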

How the results depend on the processing

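Of 324 alternative values for the type 2 and type 3 genes and their ratio, 285 were classed as the same, 27 as reversed, 11 as moved and 1 as weaker. For a tested value, the same means the same direction and side of the threshold. Single-dose ratios have no threshold and were classed as moved when scaling shifted them beyond counting error. All 11 that moved kept their direction. The type 2 to type 3 ratios from deposited FPKM were identical to the main ones. The fall of LOC110115849 passed under every alternative with 6-BA against water (log2 -1.24 to -1.07, highest adjusted p 0.0233), with both hormones (-1.21 to -1.17, highest 0.0212) and averaged over NAA (-1.13 to -1.04, highest 0.00452). With 6-BA added to NAA it passed under 13 of 14, the exception being limma (-0.9727, adjusted p 0.0509); the cause was not tested. All 27 reversals were of values that passed under no setting. For LOC110098126, library totals without TMM gave 0.0032 (6-BA against water), 0.034 (6-BA added to NAA) and 0.018 (averaged), and limma 0.048 (added) and 0.022 (averaged).

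With each library left out in turn, LOC110098126 ran from -0.283 to 0.206 (6-BA against water), -0.196 to 0.204 (added to NAA), -0.148 to 0.0964 (averaged), -0.115 to 0.318 (NAA), -0.0871 to 0.305 (both), -0.116 to 0.373 (NAA added to 6-BA), -0.219 to 0.269 (interaction), -0.771 to 0.0817 (4 against 2 weeks) and -0.0369 to 0.804 (dose slope). LOC110115849 ran from -0.130 to 0.046 (NAA added to 6-BA), -0.185 to 0.809 (dose slope) and 0.362 to 1.498 (any dose), and the type 2 to type 3 log2 ratio from -0.526 to 0.0214 (NAA), -1.22 to -0.97 (6-BA) and -1.17 to -0.77 (4 against 2 weeks). For any dose LOC110098126 ran from 0.388 to 2.28. Without the 2.0 mg/L libraries, an alternative chosen after seeing the data, any dose gave 0.89 for LOC110115849 and 1.24 for LOC110098126 (adjusted p 0.65 and 0.646, edgeR).

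TMM scaling moved the single-dose log2 ratios, in rising order of dose, to -0.221, 0.453 and 0.820 at 2 weeks and 2.55, 2.87 and 0.453 at 4 weeks for LOC110098126. For LOC110115849 it moved them to -0.381, 0.349 and 0.911 at 2 weeks and 1.61 and 2.27 at 4 weeks; the construction of the scaling accounts for these shifts. A replicate block, where samples share only a number (correlations of their deviations -0.151 to 0.206), left LOC110115849 at -1.15 with 6-BA against water (adjusted p 0.00177, edgeR) and gave -0.0016 for the interaction on LOC110098126.

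Of 240 alternative list counts, 50 moved by over 1.5 times. Among the refits, the number of all genes passing was counted only for DESeq2 and limma. Whether the lists moved more than all genes did was not tested. The block gave 1 gene each for metal transport with NAA, reactive oxygen removal with NAA and averaged 6-BA, and senescence with averaged 6-BA. DESeq2 called 2 and 5 reactive oxygen genes with 6-BA and NAA, where it called 2047 and 780 of all genes, beside 1420 and 434 by edgeR. With 6-BA, 1 senescence gene was called by DESeq2, by limma, which called 1319 of all genes, and with unscaled totals. Words matched anywhere gave 13, 4 and 16 metal transport genes for 6-BA, NAA and averaged 6-BA, from a list of 77 genes in place of 48. With a library left out, chelation counts ran from 5 to 14, 0 to 4 and 14 to 19 for these contrasts, transport from 1 to 8, 0 to 3 and 5 to 10, reactive oxygen removal from 0 to 1, 0 to 2 and 0 to 2, and senescence from 0 to 0, 0 to 0 and 1 to 2.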
